A study of Homo sapiens with 16 samples.

Results

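The expression of 9 genes of IL-6 family signalling, LIF, IL11, IL6, IL6R, IL6ST, OSMR, SOCS2, SOCS3 and STAT3, was followed in Caco-2 cells under 4 conditions. The genes were found by their names on the array, among 30971 names, and were represented by 18 of the 40982 probes tested. The rule by which they were found is their name, not a measured value, but the genes were picked with earlier results of these data known. Caco-2 is a human colorectal carcinoma line that serves as a model of the intestinal epithelium, and the study asked which of its genes respond to gliadin, the wheat protein behind celiac disease.

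Undifferentiated Caco-2 cells in flasks were kept for 6 h in one of 4 media, with 4 arrays each. PT-G cells received gliadin digested with pepsin and trypsin. PT cells received the same enzymes carried through the procedure without a substrate. In both preparations the enzymes were inactivated by heat after digestion, which the authors checked with an assay on a trypsin substrate. The concentration of the digests is not given, so it is not known whether PT and PT-G held equal amounts of enzyme. The p31-43 cells received 150 µg/ml of a synthetic gliadin peptide, and MED-CTL cells received medium alone. Cells of every condition, controls included, were detached with trypsin before the RNA was extracted. The 4 arrays of a condition came from independent experiments that lay 1 to 2 passages apart. They therefore describe the spread between cultures of a single tumour line, grown without other cell types.

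The 16 arrays had median intensities from 153 to 410 over a local background of 48 to 65, and 27660 to 33947 spots were well above background. By dates that the arrays share they fell into 4 runs, each holding 1 array of every condition, with runs 1 and 2 earlier and runs 3 and 4 later. The replicate numbers are those of the runs except that MED-CTL replicate 1 belongs to run 2 and MED-CTL replicate 2 to run 1. The arrays of runs 1 and 2 lay on 1 slide each, while PT replicate 3 and p31-43 replicate 4 were on a slide apart from the rest of runs 3 and 4. All 8 measured epithelial marker genes, among them CDX2, VIL1 and KRT19, were well above background on 16 arrays. Of the markers of other cell types, PTPRC, COL1A2 and CDH5 were well above background on 0 arrays, whereas CD14, CD3E, CD68, COL1A1, COL3A1, PDGFRB and PECAM1 had a probe that passed on all 16. Of the 13 epithelial probes 1 was called in each digest, beside 3.43% of all probes for PT-G and 3.64% for PT. It was for KRT20, which was 0.63 higher under PT-G and 0.49 higher under PT. Among 16 probes of the other cell types 1 was called, under PT, beside the same 3.64%. It was for COL3A1, which was 0.53 lower. The part of these markers in the results below was not tested.

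LIF, IL-11 and IL-6 are secreted cytokines that signal through a common receptor chain, gp130, encoded by IL6ST. Each ligand first meets its own receptor, such as IL6R for IL-6, whereas OSMR pairs with gp130 to receive oncostatin M. Gp130 then activates JAK kinases and the transcription factor STAT3, which switches on SOCS3, an inhibitor that binds gp130 and ends the signal. In the intestinal epithelium this pathway is known for its place in wound repair and in inflammation.

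All 3 ligands were higher under both digests than in medium, and none of them differed from medium under p31-43 or between PT-G and PT by the thresholds used. For IL6, close to background, the difference between p31-43 and medium was not measurable. No probe of the receptors, of SOCS2, of SOCS3 or of STAT3 was called in any comparison. A probe was called at a nominal p under 0.01 in a limma model of all probes, and values are log2 intensities. Between PT-G and MED-CTL 3 of the 18 probes were called, 1 each for LIF, IL11 and IL6 and all higher, beside 3.43% of all probes. For the same 3 probes the 4 PT-G arrays lay above all 4 MED-CTL arrays, a lack of overlap shown by 3.86% of all probes. The adjusted p was under 0.05 for 1 of the 18, IL11, beside 0.930% of all. Between PT and MED-CTL the same 3 probes were called, beside 3.64% of all, and did not overlap, beside 5.04% of all. None of the 18 passed the adjustment there, beside 0.830% of all probes. Between p31-43 and MED-CTL 0 of the 18 were called, beside 0.403% of all, and 0 were without overlap, beside 1.37%. Between PT-G and PT the counts were again 0 and 0, beside 0.0903% and 0.661% of all probes. At an unadjusted p under 0.05 the limma model also gave 0 of the 18 in both of these comparisons.

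**Figure D1:**
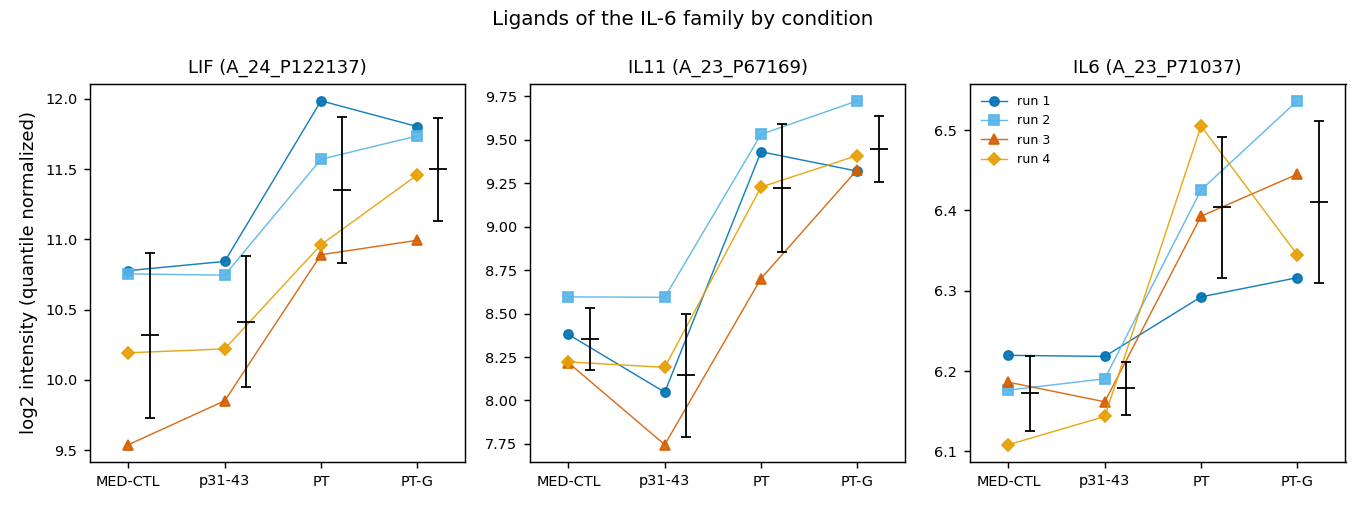
Log2 intensity of the ligands LIF, IL11 and IL6 (brightest probe of each) on every array, by condition. Lines join the arrays of a run, and the black marks beside them give the mean and SD of 4 arrays. In each panel all PT and PT-G points stand above all MED-CTL and p31-43 points, while the runs keep much of their order for LIF.

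LIF, leukaemia inhibitory factor, named for its action on leukaemia cells and required for embryo implantation in mice, was about doubled by both digests. Its level on the MED-CTL arrays was 10.75, 10.78, 9.54 and 10.19 for replicates 1 to 4. The p31-43 arrays gave 10.84, 10.75, 9.85 and 10.22. On the PT arrays it was 11.99, 11.57, 10.89 and 10.96, and on the PT-G arrays 11.80, 11.74, 10.99 and 11.46. Both digests lay wholly above medium and peptide, though the lowest digest array, from run 3, exceeded the highest medium array, from run 1, by little. LIF was 1.18 higher under PT-G than in medium (SE 0.33, 2.27-fold, limma, adjusted p = 0.142) and 1.04 higher under PT (SE 0.33, 2.05-fold, limma, adjusted p = 0.230). Under p31-43 the difference was 0.10 with a 95% interval from -0.60 to 0.80. PT-G and PT differed by 0.15, with an interval from -0.55 to 0.84.

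Much of the spread of LIF lay between runs. Within runs 1 to 4, PT-G exceeded MED-CTL by 1.02, 0.98, 1.45 and 1.26, and PT exceeded it by 1.21, 0.82, 1.35 and 0.77. The p31-43 arrays differed from the medium array of their own run by -0.01 to 0.31. A limma model with a term for the run gave LIF an adjusted p of 0.000136 under PT-G and 0.000306 under PT. With the replicate number as a block it was 0.00032 and 0.000665. LIF was lower on the later arrays, with a median of 10.56 over 8 arrays beside 11.21 over the 8 earlier ones. Without a block the call for PT-G was lost when MED-CTL replicate 3, the array with the lowest LIF, was left out (0.92 higher, limma, adjusted p = 0.255). The call for PT was lost without that array too (0.78 higher), and also without MED-CTL replicate 4 (0.99), PT replicate 1 (0.82) or PT replicate 2 (0.96). A second probe for LIF, 2948 bases away on chromosome 22, was well above background on 4 of 16 arrays and was 0.19 higher under PT-G and 0.10 higher under PT, neither called.

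IL11, interleukin-11, which acts on blood-forming cells and on stroma and epithelium, was the only one of the 9 genes to pass the adjustment in the model without a block. The MED-CTL arrays read 8.60, 8.38, 8.22 and 8.22, and the p31-43 arrays 8.05, 8.59, 7.75 and 8.19. The PT arrays read 9.43, 9.53, 8.70 and 9.23. The PT-G arrays read 9.32, 9.72, 9.33 and 9.41, all close together and all above every array of medium or peptide. The gap between PT and medium was narrow only at PT replicate 3. IL11 rose by 1.09 under PT-G (SE 0.19, 2.13-fold, limma, adjusted p = 0.0149). Under PT it was 0.87 higher (SE 0.19, 1.83-fold, limma, adjusted p = 0.0556), called at the nominal p of 0.000504. It was -0.21 apart from medium under p31-43 (95% interval -0.62 to 0.21) and 0.22 higher under PT-G than under PT (interval -0.19 to 0.64).

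Within the 4 runs the IL11 difference between PT-G and MED-CTL was 0.94, 1.13, 1.11 and 1.19. For PT it was 1.05, 0.94, 0.49 and 1.01. Run 3 thus gave the smallest PT difference, and in that run PT-G exceeded PT by 0.63, against -0.11 to 0.19 in the others. The PT array of run 3 was on another slide than its PT-G and MED-CTL arrays, so both of these differences also cross slides. When the run entered the model as a block, IL11 had a limma adjusted p of 0.000249 under PT-G and 0.00099 under PT, and with the replicate block 0.00147 and 0.00479. Without a block, IL11 under PT-G missed the adjusted threshold without PT-G replicate 2 (1.00 higher, limma, adjusted p = 0.0589). It also missed it on background-subtracted signals (1.26 higher, limma, adjusted p = 0.0547).

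IL6, the cytokine that gives the family its name and drives the acute phase response, was near the detection limit. Its probe was printed on 10 spots of each array, and it counts as well above background on an array where most of the spots not marked as outliers were. This held for 1 of 4 MED-CTL arrays, 0 of 4 p31-43 arrays, 2 of 4 PT arrays and 4 of 4 PT-G arrays. Of 40 spots in each condition, 15 were well above background in MED-CTL, 6 in p31-43, 23 in PT and 37 in PT-G. PT-G thus had the most such spots and p31-43 the fewest.

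The IL6 level was 6.18, 6.22, 6.19 and 6.11 in MED-CTL and 6.22, 6.19, 6.16 and 6.14 in p31-43. It was 6.29, 6.43, 6.39 and 6.51 in PT and 6.32, 6.54, 6.45 and 6.34 in PT-G. The digest arrays lay above all others, by a small step. IL6 was 0.24 higher under PT-G (SE 0.06, limma, adjusted p = 0.126) and 0.23 higher under PT (SE 0.06, limma, adjusted p = 0.142). The differences within runs were 0.10, 0.36, 0.26 and 0.24 for PT-G and 0.07, 0.25, 0.21 and 0.40 for PT. Between PT-G and PT the difference was 0.01 (95% interval -0.13 to 0.14), and between p31-43 and medium, where 1 of 8 arrays had IL6 well above background, it was not measurable. The size depended on the scale, and on background-subtracted signals IL6 was 0.90 higher under PT-G and 0.80 higher under PT. The nominal call under PT-G was lost with median scaling (0.18 higher, limma, adjusted p = 0.995), when dim probes were removed (0.24), when spots marked as outliers were kept (0.20) and when only these 2 conditions were fitted (0.24). The call under PT was lost in the same settings, with a difference of 0.10 after median scaling, and without PT replicate 4 (0.20 higher). A run block gave IL6 a limma adjusted p of 0.0482 under PT-G and 0.05004 under PT.

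The digests were also set against the peptide directly, in comparisons chosen after the values were seen. Between PT-G and p31-43, 3 of 18 probes were called, beside 3.70% of all, and 3 did not overlap, beside 5.77%. These were again LIF, 1.08 higher (limma, adjusted p = 0.182), IL11, 1.30 higher (limma, adjusted p = 0.00486), and IL6. No p31-43 array had IL6 well above background, so its excess is an estimate of a lower bound. It was 1.18-fold under PT-G (limma, adjusted p = 0.128) and 1.17-fold under PT (limma, adjusted p = 0.176). The spread between arrays is not in the bound, and the 95% intervals of the log2 differences were 0.10 to 0.37 and 0.09 to 0.36. The bound sets the mean over the digest arrays against, on each peptide array, the higher of the probe's own signal and the lowest signal called well above background. For IL6 that level equalled the peptide mean of 6.18, so the bounds equal the plain fold differences. Between PT and p31-43, 2 of 18 were called, beside 3.14% of all, and 3 did not overlap, beside 5.85%. IL11 was 1.08 higher there (limma, adjusted p = 0.0186), and LIF, 0.94 higher, did not reach the nominal threshold (limma, adjusted p = 0.352). LIF was higher under PT than under p31-43 within all 4 runs, by 1.14, 0.82, 1.04 and 0.74, and was called with each of the 4 blocks, for run, replicate, slide and batch. With the run block its limma adjusted p was 0.000574 and with the replicate block 0.00111. The concentration of the digests is not given in the sources used here, so doses could not be matched to that of the peptide, and these comparisons share their arrays with those against medium.

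The stretch just before a gene's start holds much of its promoter, and the RefSeq promoters (build GRCh38.p14, 250 bases before the start) of ligands that were higher under the digests are printed 5′ to 3′ on the strand of the gene. The IL11 promoter lies at chr19:55370464-55370713 on the minus strand, and the capitals mark the match to an AP-1 site.
IL11: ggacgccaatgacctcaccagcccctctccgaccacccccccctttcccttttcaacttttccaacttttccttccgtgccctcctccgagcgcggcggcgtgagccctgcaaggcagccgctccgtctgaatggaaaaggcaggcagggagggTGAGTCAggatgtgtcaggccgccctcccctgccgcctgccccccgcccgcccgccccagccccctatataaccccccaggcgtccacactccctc
The IL6 promoter lies at chr7:22726950-22727199 on the plus strand, with no capitals because none of the patterns searched, as written below, was matched.
IL6: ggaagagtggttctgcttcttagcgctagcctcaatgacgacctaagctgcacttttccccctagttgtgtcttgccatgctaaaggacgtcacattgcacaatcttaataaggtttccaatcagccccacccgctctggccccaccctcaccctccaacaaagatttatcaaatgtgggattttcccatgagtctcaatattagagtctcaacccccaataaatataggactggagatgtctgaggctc

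Both strands were searched for a STAT site (TTCNNNGAA), an AP-1 site (TGANTCA), a CRE site (TGACGTCA), an EGR site (GCGNGGGCG) and an NF-kB site (GGGNNTTCC). IL11 held 1 AP-1 match, 96 to 90 bases before the start. That motif was present in 6.57% of 35116 promoters of the same length. The STAT motif was also present in 6.57%, CRE in 1.65%, EGR in 8.41% and NF-kB in 5.78%. Of the other members, OSMR held an NF-kB match 125 to 117 bases before the start and STAT3 one 12 to 4 bases before it. IL6R, IL6ST and SOCS3 held no match. LIF and SOCS2 were not searched. The NF-kB pattern has a fixed length and cannot match a longer stretch, such as gggattttcc in the IL6 sequence printed above. A promoter without a match may therefore still hold a site of that kind. Matches are letters in a window and say nothing of a factor's binding in these cells.

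**Figure D2:**
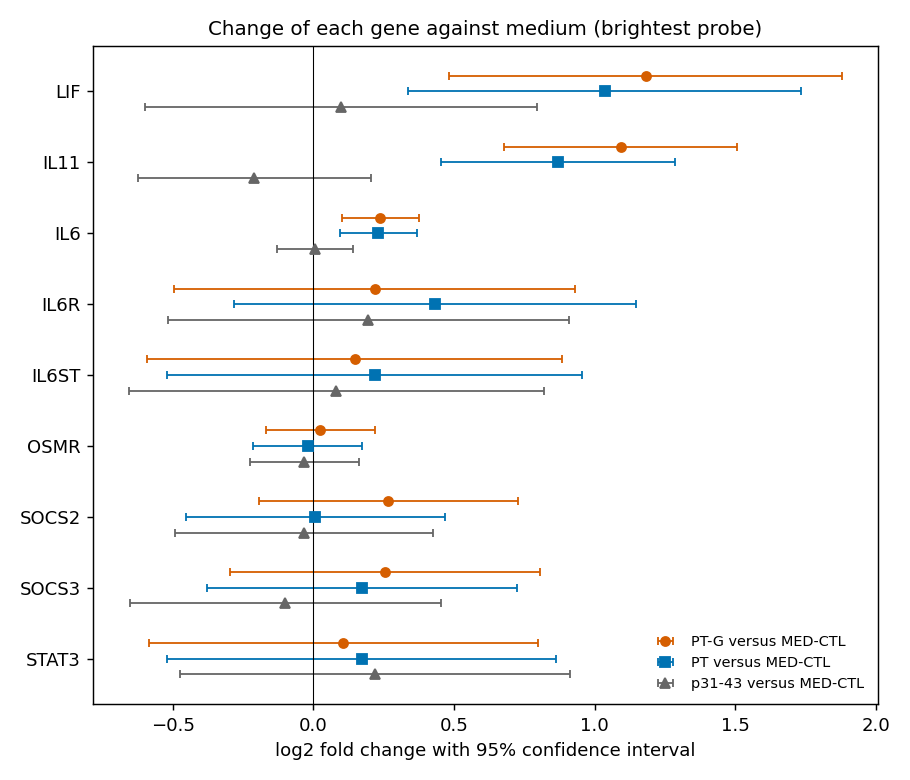
Log2 fold change of each gene (brightest probe) against MED-CTL with its 95% confidence interval from the limma model, for PT-G, PT and p31-43, 4 arrays each. For LIF, IL11 and IL6 the PT-G and PT intervals lie above 0. Those of the receptors, SOCS2, SOCS3 and STAT3 include 0.

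None of the receptor probes was called. IL6R, the receptor chain specific for IL-6, read 9.32, 8.87, 7.75 and 9.35 in MED-CTL and 9.10, 9.29, 8.34 and 9.45 in PT-G. PT arrays read 8.90, 9.59, 9.22 and 9.33, and p31-43 arrays 8.84, 9.54, 8.73 and 8.97. The conditions overlapped throughout, and the lowest values of medium and PT-G both came from run 3. IL6R differed from medium by 0.22 under PT-G (95% interval -0.50 to 0.93) and by 0.43 under PT (-0.28 to 1.15). Much of the PT value came from run 3, where PT exceeded MED-CTL by 1.46, against -0.02 to 0.26 in the other runs. The PT and MED-CTL arrays of run 3 were on different slides, and a slide block gave a PT difference of 0.25 (limma, adjusted p = 0.423).

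IL6ST, the shared gp130 chain, separated by run and not by treatment on its brighter probe. Its brighter probe read 9.09, 8.92, 9.19 and 9.81 in MED-CTL and 9.07, 9.03, 9.38 and 10.11 in PT-G. It read 8.98, 8.89, 9.90 and 10.12 in PT and 8.80, 8.96, 9.81 and 9.77 in p31-43. All 8 arrays of the later runs, between 9.19 and 10.12, lay above all 8 of the earlier runs, between 8.80 and 9.09. The share of all probes with such a split between runs was not computed, so it is not known whether the split is unusual. The difference from medium was 0.15 under PT-G (95% interval -0.59 to 0.88) and 0.22 under PT (-0.52 to 0.96). A second probe, 7980 bases away on chromosome 5, was well above background on 11 of 16 arrays, and its differences from medium lay between -0.03 and 0.01.

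OSMR, which joins gp130 to bind oncostatin M, was not measurable above background on most arrays. Its 3 probes on chromosome 5 were well above background on 2, 1 and 0 of 16 arrays, with levels between 5.79 and 6.44. A change was not detectable at this signal, and its differences from medium lay between -0.06 and 0.17.

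SOCS2, an inhibitor best known for restraining growth hormone signalling, was well above background on all arrays with both probes. The brighter read 13.97, 14.60, 15.03 and 14.27 in MED-CTL, and 14.66, 14.63, 15.10 and 14.55 in PT-G. In PT it read 14.64, 14.29, 14.59 and 14.37, and in p31-43 14.71, 13.97, 14.64 and 14.42. Every condition overlapped every other. PT-G was 0.27 higher than medium (95% interval -0.19 to 0.73, limma, adjusted p = 0.977), with an excess of 0.07, 0.65, 0.07 and 0.28 in runs 1 to 4. PT was 0.01 higher (-0.45 to 0.47). The second probe, 1232 bases away, gave 0.04 for PT-G and -0.18 for PT.

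SOCS3, the feedback inhibitor that STAT3 itself induces, read 11.16, 10.75, 10.82 and 10.17 in MED-CTL and 11.21, 11.24, 10.94 and 10.53 in PT-G. PT arrays read 11.34, 11.08, 10.54 and 10.64, and p31-43 arrays 10.77, 11.16, 10.37 and 10.22. The conditions overlapped, and the highest value of each came from an earlier run. SOCS3 was 0.25 higher under PT-G than in medium (95% interval -0.30 to 0.80, limma, adjusted p = 1) and 0.17 higher under PT (-0.38 to 0.72). Within runs PT-G exceeded medium by 0.45, 0.08, 0.12 and 0.36, whereas PT differed from it by 0.59, -0.07, -0.28 and 0.46. With a run block SOCS3 under PT-G had a limma adjusted p of 0.349. A second probe, 1432 bases away on chromosome 17, gave 0.08 for PT-G and 0.02 for PT. On it the 8 earlier arrays, from 7.04 to 7.43, lay above the 8 later ones, whose highest was 7.001. How many of all probes split in this way was not computed.

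STAT3, the transcription factor on which these receptors converge, had 4 probes. The brightest, on 10 spots of each array, read 9.62, 9.88, 9.13 and 9.07 in MED-CTL and 10.05, 9.78, 9.5045 and 8.79 in PT-G. It read 10.26, 9.79, 9.39 and 8.96 in PT and 10.12, 9.55, 9.82 and 9.09 in p31-43. Under each condition the highest value came from an earlier run and the lowest from run 4. STAT3 differed from medium by 0.11 under PT-G (95% interval -0.59 to 0.80), 0.17 under PT (-0.52 to 0.86) and 0.22 under p31-43 (-0.47 to 0.91). A probe 20 bases from it gave 0.04, 0.12 and 0.19. A probe 8461 bases away gave 0.10, -0.11 and -0.10, and one 65096 bases away was well above background on 1 of 16 arrays. That dim probe, 0.20 higher under PT, reached the nominal threshold there only without MED-CTL replicate 2 (0.26 higher, limma, adjusted p = 0.153). Arrays measure the RNA of STAT3, and its phosphorylation was not measured here.

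**Figure D3:**
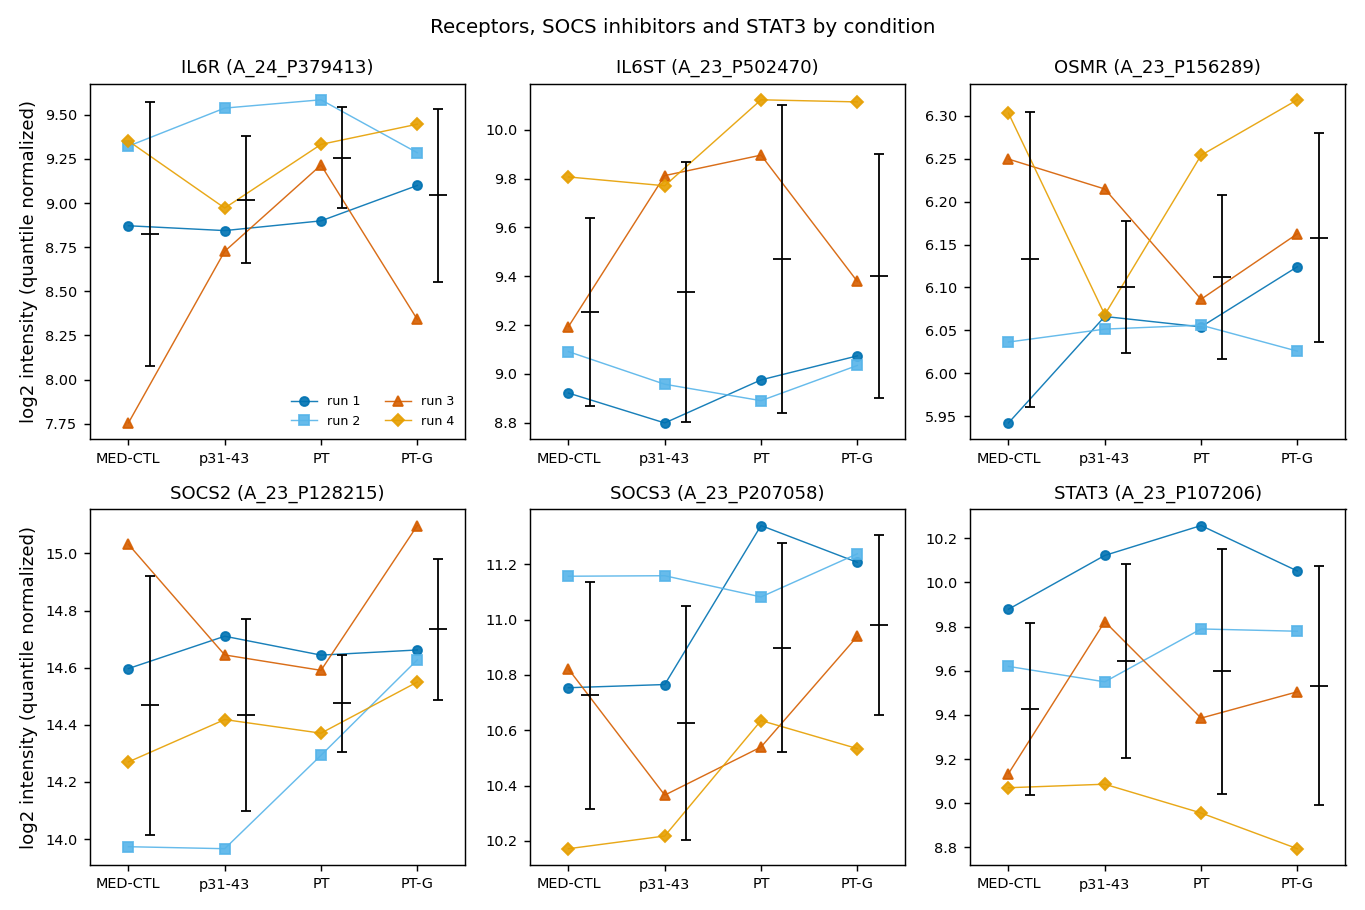
Log2 intensity of IL6R, IL6ST, OSMR, SOCS2, SOCS3 and STAT3 (brightest probe of each) on every array, by condition. Lines join the arrays of a run, and black marks give the mean and SD of 4 arrays. The conditions overlap in every panel, and IL6ST is higher in runs 3 and 4 than in runs 1 and 2 under all conditions.

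Over these 14 probes of receptors, inhibitors and STAT3, the smallest nominal p was 0.235 for PT-G against medium, 0.0173 for PT and 0.308 for p31-43. Their log2 differences lay between -0.03 and 0.27 under PT-G and between -0.18 and 0.43 under PT. The highest upper bound of their 95% intervals was 0.93 under PT-G, below the differences measured for LIF and IL11, and 1.15 under PT, above them, both for IL6R. The PT-G intervals of LIF (0.48 to 1.88) and IL11 (0.68 to 1.51) began below 0.93, so they overlap that of IL6R. A run block took out the differences between runs. With it, the share of all probes called against medium was 1.38% for the peptide, 10.2% for PT and 9.11% for PT-G. Of the 14 probes, 0 were called with this block in any of these comparisons. Their smallest limma adjusted p was 0.299 under PT-G and 0.154 under PT. The median difference over all 18 probes was 0.10 under PT-G and 0.15 under PT, beside -0.01 and -0.01 over all probes tested.

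A wider list of 72 genes of the pathway, of which 70 were on the array with 112 probes, was examined beside the 9. Between PT-G and MED-CTL 7 of its 112 probes were called, beside 3.43% of all probes, and all were higher, for BCL3, CISH, ICAM1, JUNB, MCL1 and MYC. Between PT and MED-CTL 6 were called higher, for BCL3, CISH, ICAM1, JUNB and MCL1, and 1 lower, for SAA2, beside 3.64% of all. Under p31-43 none was called higher and 2 were called lower, for JAK3 and a dimmer probe of MYC, neither with an adjusted p under 0.05, beside 0.403% of all. Between PT-G and PT 0 were called, beside 0.0903% of all. The other ligands (7 genes measured), the other receptors and sheddases (7), the JAK kinases (4) and the other STATs (6) had no probe called under either digest. The median difference of the 112 probes was 0.03 under PT-G and 0.02 under PT.

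Among 14 other inhibitors 1 of 28 probes was called under each digest, near the share of all probes, 3.43% for PT-G and 3.64% for PT. The probe was for CISH, a SOCS family member induced by STAT5. CISH read 9.82, 9.75, 9.98 and 9.93 in MED-CTL, 10.17, 10.19, 10.22 and 10.81 in PT and 10.16, 10.28, 10.54 and 10.52 in PT-G. Neither digest overlapped medium, a lack of overlap shown by 3.86% of all probes for PT-G and 5.04% for PT. The p31-43 arrays, from 9.67 to 9.87, overlapped the medium arrays, and the difference was -0.09 (95% interval -0.38 to 0.19). CISH was 0.51 higher under PT-G (SE 0.13, limma, adjusted p = 0.119) and 0.48 higher under PT (SE 0.13, limma, adjusted p = 0.145). A run block gave adjusted values of 0.0155 and 0.0187. A dimmer second probe gave 0.14 and 0.15 and was not called.

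Of 19 measured STAT3 targets in transcription and growth, with 28 probes, 5 had a probe called under PT-G and 4 under PT. These were 6 and 5 probes, beside 3.43% and 3.64% of all probes. The adjustment was passed by 4 of the 28 under each digest, beside 0.930% and 0.830% of all. JUNB, a subunit of the AP-1 transcription factor, had the largest difference of them. It read 13.82, 12.71, 12.98 and 12.98 in MED-CTL, 14.89, 14.90, 14.39 and 14.48 in PT, and 14.84, 15.11, 15.12 and 14.54 in PT-G. JUNB rose by 1.78 under PT-G (SE 0.27, limma, adjusted p = 0.00568) and by 1.54 under PT (SE 0.27, limma, adjusted p = 0.0150). Both digests lay above every medium and every peptide array. A dimmer JUNB probe was 1.31 higher under PT-G and 1.17 higher under PT. It was not called without a block but was called with each of the 4 blocks under both digests (run block, limma, adjusted p = 0.00976 and 0.0165).

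BCL3, a nuclear partner of NF-kB, rose by 0.76 under PT-G (SE 0.10, limma, adjusted p = 0.0032) and by 0.55 under PT (limma, adjusted p = 0.0238). ICAM1, an adhesion molecule for leukocytes, rose by 0.74 under each digest (SE 0.09, limma, adjusted p = 0.00146 and 0.0019). MCL1, which protects cells from apoptosis, rose by 0.59 under PT-G (SE 0.09, limma, adjusted p = 0.00889) and by 0.46 under PT (limma, adjusted p = 0.0401). On the brightest probe of these 3 genes each run gave a higher value under each digest than in medium. The dimmest MCL1 probe, 0.84 higher under PT-G and 0.54 higher under PT, was not called, but with a run block its limma adjusted p was 0.033 under PT-G and 0.15 under PT. MYC, a driver of cell growth, was 1.07 higher under PT-G (SE 0.27, limma, adjusted p = 0.103) on its brightest probe, and 0.70 higher under PT, which was not called without a block but was with a run block (limma, adjusted p = 0.0369). Its 2 other probes gave -0.21 and 0.80 under PT-G, neither called, so that the probes disagreed. These genes are known as targets of NF-kB and MAP kinase signalling as well as of STAT3.

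The 13 acute phase genes on the list, which liver cells raise in answer to IL-6, had 0 of 17 probes called under PT-G, beside 3.43% of all probes. Under PT 1 of 17 was called, beside 3.64% of all. The probe called was for SAA2, lower by an estimated lower bound of 1.30-fold (limma, adjusted p = 0.145). That probe was well above background on 2 MED-CTL arrays and 0 PT arrays, and its log2 difference had a 95% interval from -0.81 to -0.21. The other SAA2 probe, well above background on 3 arrays, gave -0.03 under PT and was not called. The median difference of these 17 probes was -0.03 under PT-G and -0.04 under PT.

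**Figure D4:**
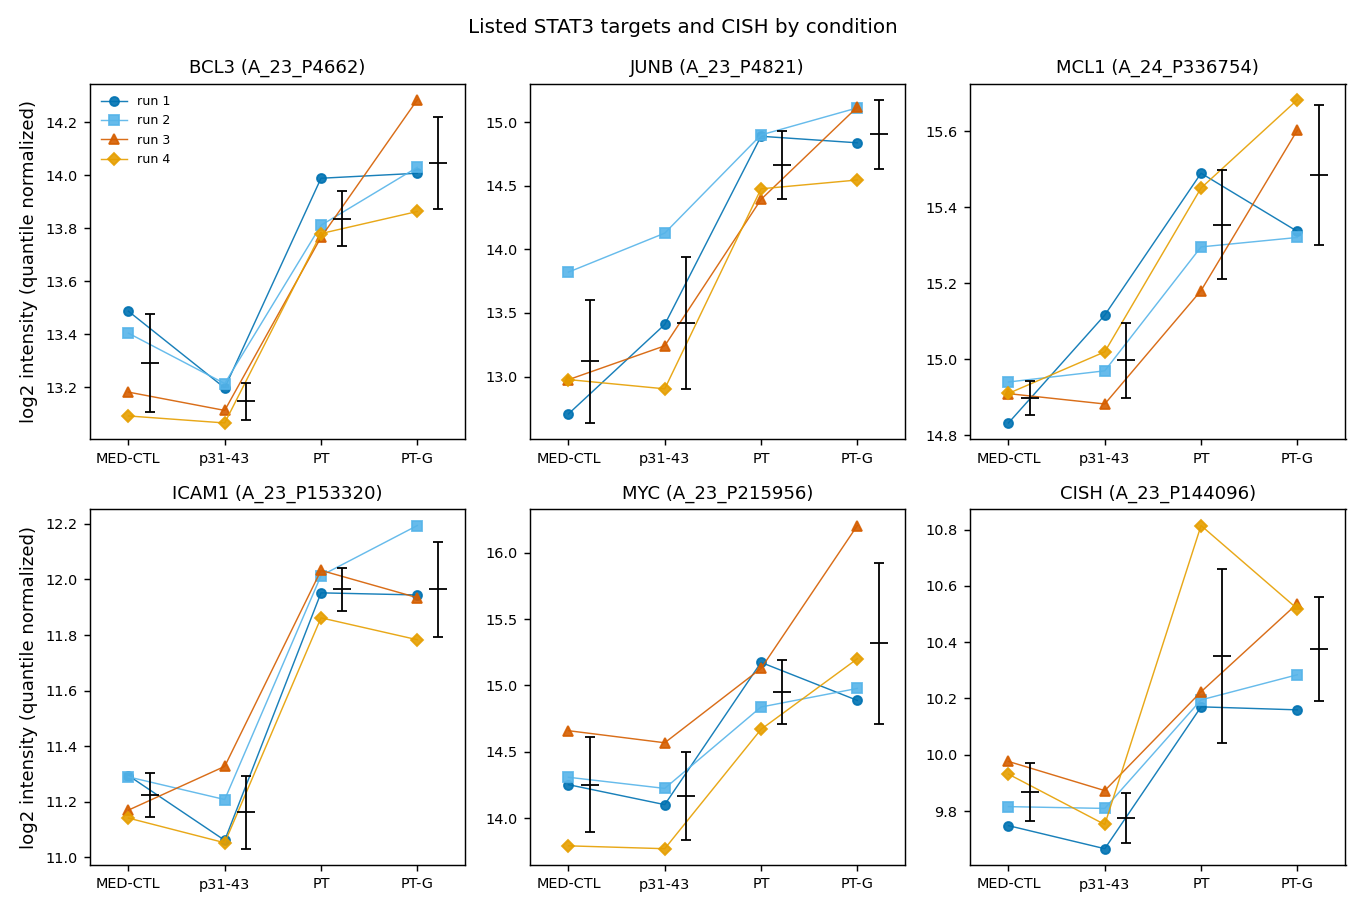
Log2 intensity of BCL3, JUNB, MCL1, ICAM1, MYC and CISH (brightest probe of each) on every array, by condition. Lines join the arrays of a run, and black marks give the mean and SD of 4 arrays. In every panel the PT and PT-G arrays stand above the MED-CTL and p31-43 arrays of the same run.

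The levels of the 3 ligands were set against those of 18983 probes of named genes that were well above background on all 16 arrays. Probes without a gene name, with a provisional name or with a missing value were left out. The IL6 probe was itself well above background on only 7 of the 16 arrays. The arrays share their runs and conditions, so the coefficients describe these arrays only. Closest to IL11 were RGS16, a regulator of G protein signalling (Pearson r = 0.963), SERTAD1 (0.963), PLK3, a stress-activated kinase (0.956), FOXD4 (0.955) and PALM (0.954). Closest to LIF were MFNG (0.961), ProSAPiP1 (0.955), MAFK, a small Maf transcription factor (0.946), CDR2L (0.945) and TBC1D8B (0.943). Closest to IL6 were RRAD, a small GTPase (0.940), KIAA1957 (0.922), FZD9 (0.916), ATF3, a transcription factor of the stress response (0.908), and DUSP4, a phosphatase of MAP kinases (0.905). After the mean of each run had been subtracted the closest were ARL14 for IL11 (0.992), PTPRE for LIF (0.993) and the chemokine receptor gene CXCR4 for IL6 (0.954). RRAD and KIAA1957 were among the 5 closest to IL6 in both ways of calculation.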

How the data were processed

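Gene expression was measured on 16 one-colour Agilent arrays, 4 for each condition. Spot intensities, deposited by the authors as their image analysis gave them (Agilent Feature Extraction 9.5.3.1), were background-subtracted or not according to the column. The authors also deposited log2 values, which equal the log2 median foreground intensity after quantile normalization over all 45015 spots, without background subtraction, within 5.0e-09. The deposited log2 values were used here. Without background subtraction, fold changes of dim probes are understated.

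Control spots (1639) and spots marked as outliers (1774 over all arrays) were left out and the spots of a probe averaged. Each condition needed at least 3 arrays with an unmarked spot, which 18 of 41000 probes did not have. Testing used limma 3.58.1 under R 4.3.3, with 4 conditions in 1 model (12 residual and 1.895 prior degrees of freedom), 2-sided, with Benjamini-Hochberg adjustment within each comparison. The thresholds were the study's nominal p under 0.01 and an adjusted p under 0.05. The model was tested on simulated data. The number of arrays limits the precision.

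The members and gene lists were chosen with earlier results of these data known. Named genes were all members and, of the pathway list, at most 12 with a nominal p under 0.01 under PT-G or PT. A gene with several probes was represented by the brightest. Likeness was Pearson correlation, with the 5 closest genes given for the 3 members of smallest p.

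Deviations from the group means of arrays with the same replicate number correlated at 0.396 to 0.857 for PT-G with MED-CTL and at 0.262 to 0.706 for p31-43 with MED-CTL. By run the ranges were 0.629 to 0.857 and 0.538 to 0.706, and all 8 arrays of either pair of conditions correlated best with their own run, against 4 of 8 by number. The run therefore pairs these arrays more closely than the number. For PT with MED-CTL the correlations by number ranged from -0.00256 to 0.412, and for PT-G with PT from 0.0522 to 0.696. By run PT with MED-CTL gave 0.376, 0.621, -0.00256 and 0.412 for runs 1 to 4, so run 3 showed no pairing there. Of these 8 arrays 5 correlated best with their own run, against 1 by number. For PT-G with PT it was 4 of 8 by run and 4 of 8 by number. Alternatives were other backgrounds, scalings, filters and spreads, array weights (statmod 1.5.0), blocks for replicate, run, slide and batch, and leaving out each array. Promoters came from RefSeq. The files name no genome build for the probes, so probe coordinates are not given.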

Additional observations from a re-analysis of the deposited data

Results flagged for a closer look

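Among 72 sets of 4 arrays (18 probes in 4 conditions), 3 had a single array far from the rest by Dixon's criterion, where chance flags about 1 set in 20. OSMR, on a probe close to background, read 6.21 on p31-43 replicate 3 against 6.05 to 6.07 on the other p31-43 arrays. On the same probe it read 6.25 on PT replicate 4 against 6.05 to 6.09 on the other PT arrays. A probe for STAT3 (A_23_P100795) read 9.44 on PT-G replicate 3 against 8.09 to 8.31 on the other PT-G arrays, while MED-CTL replicate 3, of the same run, read 9.29 on it.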

How the results depend on the processing

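The counts of member probes called (3, 3, 0 and 0 for PT-G, PT and p31-43 against MED-CTL and for PT-G against PT) were recomputed under 14 other settings and without each of the 16 arrays. No called difference of the 9 genes, in 6 comparisons, or of the named pathway genes, in PT-G and PT against MED-CTL, changed direction. The pathway genes were not recomputed in other comparisons. For PT against MED-CTL the count was 1 when only the 2 groups compared were fitted, beside 2.73% of all probes. For PT against p31-43, a comparison chosen after seeing the data, it was 1 instead of 2 with median scaling, with dim probes removed and with outlier spots kept, and 3 with background-subtracted signals, mean foreground, array weights and each of the 4 blocks, where LIF was called too. Leaving out arrays gave counts from 1 to 3 for PT-G against p31-43, with 1 without PT-G replicate 2 (3.01% of all probes called). The counts ran from 2 to 3 for PT against p31-43. For PT against MED-CTL they ran from 2 to 4, the highest without MED-CTL replicate 2 (2.62% of all probes called). The cause of these changes was not tested. LIF lost its nominal call for PT against MED-CTL without MED-CTL replicate 3 (0.78 higher), MED-CTL replicate 4 (0.99), PT replicate 1 (0.82) or PT replicate 2 (0.96), and IL6 without PT replicate 4 (0.20). IL11 kept its nominal call against MED-CTL in all of these for both digests, from 1.00 to 1.26 higher under PT-G and from 0.77 to 1.04 under PT. On background-subtracted signals the IL6 difference between p31-43 and MED-CTL was -0.34. With the replicate block the counts were 3, 3, 0 and 0 as well, but more of all probes were called, 7.58%, 8.45%, 1.05% and 0.224%. The limma adjusted p under PT-G was then 0.00032 for LIF, 0.00147 for IL11 and 0.0569 for IL6. With median scaling the median difference of all probes was -0.11 for PT against MED-CTL and 0.11 for PT-G against p31-43. On background-subtracted signals it was 0.11 for PT against p31-43. The main model gave -0.0125, 0.000967 and -0.00399 for these 3 medians. Of all probes called, the share that was higher moved with median scaling from 55.8% to 69.3% for PT-G against MED-CTL and from 62.2% to 87.5% for PT-G against PT, and with background-subtracted signals from 37.6% to 8.92% for p31-43 against MED-CTL, from 62.2% to 34.1% for PT-G against PT and from 45.1% to 56.2% for PT against p31-43. Signal over background limits what can be said of IL6 and OSMR.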
